A study of Mus musculus with 28 samples.

Results

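RNA from macrophages sorted out of healthy wild-type mouse kidneys was set beside RNA from whole wild-type kidneys, gene by gene. The comparison covers the 9884 genes listed in both deposited expression tables, of 12954 genes listed in either. It uses 3 macrophage libraries (named WTa, WTb and WT2 by the submitters) and 4 whole-kidney libraries (WT_346, WT_356, WT_388 and WT_550) of the 28 libraries of a lupus nephritis study. All 7 came from C57BL/6 female littermate mice aged 7 to 9 months that carried both intact genes the study deletes elsewhere, Rhbdf2 (iRhom2) and Fcgr2b (the inhibitory Fc receptor). The macrophages were CD45+F4/80hiCD11b+Ly6G-Ly6C- cells sorted by flow cytometry after collagenase digestion and a Percoll step. The kidneys were perfused and taken whole, so they hold every renal cell type, macrophages included. The labels do not say whether libraries of a group came from separate mice, so the spread between them may be technical.

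Resident kidney macrophages lie in the interstitium, wrapped around the tubules and next to the peritubular capillaries. They take up debris and immune complexes, make complement C1q, and present antigen on MHC class II. The tubule around them is a chain of segments: the proximal tubule reabsorbs most of the filtrate and makes glucose, the thick ascending limb pumps salt and secretes uromodulin, and the distal convoluted tubule and collecting duct set the final salt, water and acid balance.

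Tissue was not the only thing that differed. The macrophage libraries were made with a low-input SMART-Seq kit and the kidney libraries with a TruSeq kit, at different core facilities, and each table was normalized on its own. Cell preparation, kit and facility cannot be told apart from tissue, and 3 libraries against 4 could give no two-sided exact permutation p below 0.0571. No test was therefore made, and all results below are levels, within-library ranks and large differences. The libraries held 30849829 to 34869404 reads in listed genes for macrophages and 33845475 to 36905140 for kidney. Among the macrophage libraries WT2 stood apart: its log2 values correlated with WTa at r = 0.939 and with WTb at r = 0.956 across genes, whereas WTa and WTb reached 0.983 and all kidney pairs lay between 0.991 and 0.995. Genes are not independent replicates, and these values only describe the libraries. Counts of called genes on a list that change without WT2 are given both ways.

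The promoters of 7 genes that separated the tissues are shown first, because they hold the letters read by well-known lineage factors. PU.1, encoded by Spi1, is the master regulator of myeloid cells, and its preferred site contains GAGGAAGT (ACTTCCTC on the other strand). HNF1 factors act in the tubule epithelium and were searched as GTTAATNAT. Windows reached from 250 bases before to 50 bases after the RefSeq start site (build GRCm38.p6), and both strands were read. Of 10249 windows of the shared genes, 328 (3.20%) held the PU.1 letters and 47 (0.459%) the HNF1 letters. The motifs and genes were chosen with the expression results known. Windows were present for only 78.3% of the genes higher in macrophages and 79.8% of the genes lower, so the comparison of motif shares between these sets was void. A match is a description of the sequence, not evidence of binding. Shown are 5 listed genes with a large macrophage excess and a PU.1 match, and 2 with a large deficit and an HNF1 match, all of at least 5 log2 CPM in the higher tissue. They had these windows, each 5′ to 3′ along its gene with the match in capitals:
Pf4 (chr5:90772185-90772484, plus strand): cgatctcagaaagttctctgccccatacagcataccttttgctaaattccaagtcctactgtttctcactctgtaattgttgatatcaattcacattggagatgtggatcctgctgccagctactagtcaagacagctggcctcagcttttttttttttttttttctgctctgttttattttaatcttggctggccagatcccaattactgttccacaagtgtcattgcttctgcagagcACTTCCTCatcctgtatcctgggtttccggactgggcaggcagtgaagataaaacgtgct
Cd53 (chr3:106790100-106790399, minus strand): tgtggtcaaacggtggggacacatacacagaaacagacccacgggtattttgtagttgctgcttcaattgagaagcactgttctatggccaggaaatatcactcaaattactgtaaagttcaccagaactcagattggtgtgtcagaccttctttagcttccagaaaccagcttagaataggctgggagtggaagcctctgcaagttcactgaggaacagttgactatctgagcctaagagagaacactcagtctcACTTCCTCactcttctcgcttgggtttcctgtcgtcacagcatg
Ctss (chr3:95526536-95526835, plus strand): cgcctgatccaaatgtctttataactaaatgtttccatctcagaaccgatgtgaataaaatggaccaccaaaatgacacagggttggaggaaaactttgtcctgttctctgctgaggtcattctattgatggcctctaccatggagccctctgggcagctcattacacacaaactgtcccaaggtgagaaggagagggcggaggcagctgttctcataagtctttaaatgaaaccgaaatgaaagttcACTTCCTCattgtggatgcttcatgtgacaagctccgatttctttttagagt
Fcgr4 (chr1:171018676-171018975, plus strand): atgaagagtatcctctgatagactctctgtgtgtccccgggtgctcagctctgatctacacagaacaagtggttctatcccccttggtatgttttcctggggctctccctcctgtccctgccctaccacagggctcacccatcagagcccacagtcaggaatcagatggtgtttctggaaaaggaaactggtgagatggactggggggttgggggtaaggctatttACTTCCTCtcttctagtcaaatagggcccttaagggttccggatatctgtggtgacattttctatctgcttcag
C1qc (chr4:136892865-136893164, minus strand): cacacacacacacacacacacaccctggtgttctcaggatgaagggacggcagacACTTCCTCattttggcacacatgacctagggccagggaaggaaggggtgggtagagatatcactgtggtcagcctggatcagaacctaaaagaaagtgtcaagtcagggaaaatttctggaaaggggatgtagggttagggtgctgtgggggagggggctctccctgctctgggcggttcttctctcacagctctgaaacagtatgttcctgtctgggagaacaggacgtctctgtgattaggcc
G6pc (chr11:101367466-101367765, plus strand): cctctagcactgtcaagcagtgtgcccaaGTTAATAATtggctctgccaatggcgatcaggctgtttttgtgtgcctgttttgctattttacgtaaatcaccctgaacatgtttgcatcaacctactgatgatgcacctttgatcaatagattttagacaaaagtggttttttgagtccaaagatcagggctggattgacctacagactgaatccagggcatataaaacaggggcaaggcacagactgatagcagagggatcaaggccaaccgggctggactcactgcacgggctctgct
Atp6v0a4 (chr6:38124537-38124836, minus strand): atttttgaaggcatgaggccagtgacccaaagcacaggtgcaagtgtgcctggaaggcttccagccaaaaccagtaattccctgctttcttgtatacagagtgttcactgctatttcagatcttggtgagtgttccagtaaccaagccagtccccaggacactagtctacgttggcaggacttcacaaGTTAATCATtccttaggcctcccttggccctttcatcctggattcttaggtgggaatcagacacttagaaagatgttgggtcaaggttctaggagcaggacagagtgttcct

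The PU.1 match began 10 bases upstream of the start site in Pf4, 2 bases upstream in Ctss, 24 in Fcgr4 and 195 in C1qc, and 6 bases downstream of it in Cd53. All 5 lay on the strand opposite to the gene. In G6pc the HNF1 match began 221 bases upstream and in Atp6v0a4 62 bases upstream, both on the gene's own strand. The expression of these genes is given below with their groups: Pf4 is a chemokine, Cd53 a leukocyte tetraspanin, Ctss the protease cathepsin S, Fcgr4 an Fc receptor, C1qc a C1q chain, G6pc the last enzyme of glucose production and Atp6v0a4 a proton pump subunit of intercalated cells.

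Levels are log2 CPM, the reads of a gene per 1000000 on the authors' own library scaling. To be called higher or lower, a gene needed all 3 macrophage values on the same side of all 4 kidney values. This was required both in log2 CPM and in within-library percentile rank. The group means also had to differ by at least 3 on the log2 scale, which is 8-fold. By this rule 586 of 9884 genes (5.93%) were higher in macrophages and 1237 (12.5%) were lower, and 8061 were neither. The median difference over all genes was -0.51, and 40.8% of genes differed by less than 2-fold between the group means. With that median shift taken out, 731 genes were higher and 848 lower, so the balance between the directions depends on the scaling. Gene levels in the tissues agreed weakly in rank, with a Spearman correlation of 0.338 across genes, against 0.946 to 0.986 between macrophage libraries and 0.992 to 0.996 between kidney libraries. At the edge of the rule, Samhd1 lay just inside at 3.001 and Rad9a just outside at 2.9997 on the high side. On the low side Thoc3 lay just inside at -3.0003 and Zfp664 just outside at -2.996. Without WT2, 553 genes were higher, of which 548 were among the 586, and 1085 were lower, of which 1061 were among the 1237.

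**Figure D1:**
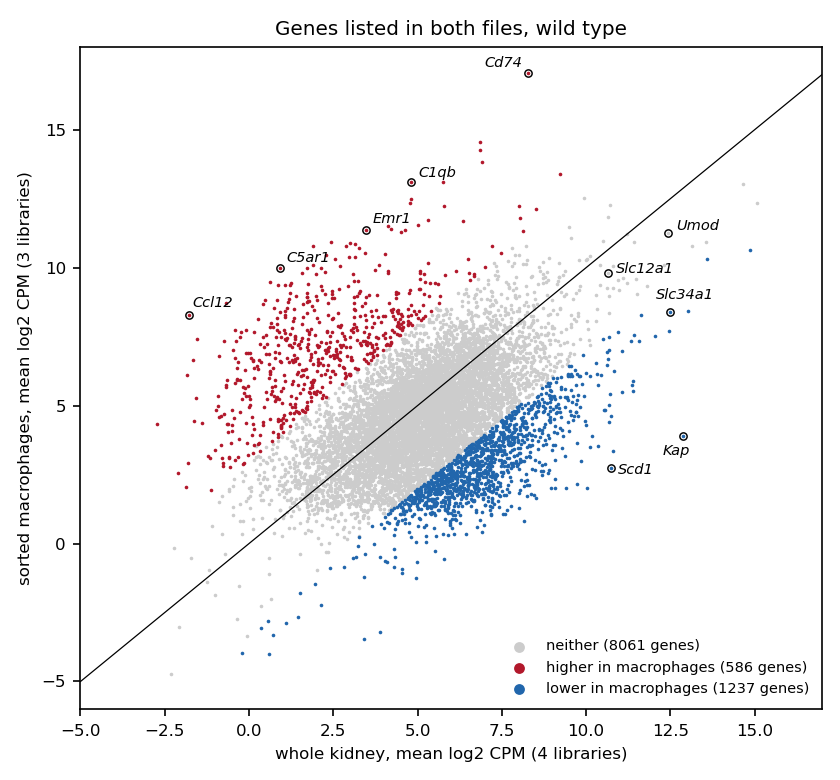
Mean log2 CPM of each shared gene in whole kidney (x axis, 4 libraries) against sorted macrophages (y axis, 3 libraries), with equal levels on the diagonal and circles around named genes. Cd74, C1qb, Emr1 and Ccl12 lie far above the diagonal and Kap and Scd1 far below it, while the thick-limb genes Umod and Slc12a1 lie close to it.

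The genes behind the sort gate followed it. Ptprc, which encodes CD45, measured 1363, 1428 and 1535 CPM in WTa, WTb and WT2 and 14.3, 16.7, 19.1 and 15.6 CPM in the 4 kidney libraries, a log2 difference of 6.46 ± 0.10 (SE). Adgre1, the gene for F4/80, is listed under its older symbol Emr1 (chr17:57358685-57483529, build mm10) and measured 2447, 2323 and 3283 CPM against 10.0, 12.2, 11.3 and 11.0 CPM, a difference of 7.90 ± 0.17. Itgam, which encodes CD11b, measured 123, 127 and 223 CPM against 2.89, 3.52, 3.41 and 3.62 CPM and differed by 5.50 ± 0.29. For these 3 genes every macrophage library lay far above every kidney library. In the whole kidney, fewer cells of a type and less RNA per cell cannot be told apart, here or below. Ly6c1, an Ly6C gene also made by endothelium, measured 15.4, 11.6 and 4.36 CPM against 44.4, 54.8, 43.8 and 36.4 CPM, so macrophages were on the low side with no call. Ly6c2, the monocyte Ly6C gene, is listed in the kidney table only, at 0.45 to 1.21 CPM, and Ly6g is listed in neither.

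Genes that define macrophages were higher as a group. Of the 20 genes of a macrophage core list, 16 were higher, none was lower, and the median difference was 6.99. Cd68, a lysosomal glycoprotein of macrophages, measured 1222, 1342 and 1663 CPM in macrophages and 4.86, 5.68, 5.01 and 3.98 CPM in kidney (8.17 ± 0.17). Csf1r, the receptor through which macrophages receive their survival signal, measured 3161, 3207 and 3466 against 77.3, 77.2, 92.5 and 79.0 CPM (5.33 ± 0.08). Cx3cr1, the fractalkine receptor, measured 2221, 1904 and 1542 against 6.96, 8.93, 9.27 and 10.4 CPM (7.73 ± 0.20). In all 3 the groups were far apart, and Cx3cr1 was lowest in WT2 while Cd68 was highest there. The lysozyme gene Lyz2 (6.41), the co-receptor Cd14 (7.26), the tetraspanin Cd53 (7.76), the calcium-binding protein Aif1 (7.85) and the adaptors Tyrobp (6.71) and Fcer1g (7.92) were also higher. Among the 4 members without a call were Mertk, Sirpa and Spi1. Sirpa, the receptor for the CD47 signal, measured 303, 327 and 284 against 153, 144, 143 and 163 CPM. The transcription factor gene Spi1 measured 34.7, 36.8 and 33.6 against 4.51, 4.53, 5.41 and 4.76 CPM. Its groups did not overlap, but the difference of 2.87 fell short of 8-fold.

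**Figure D2:**
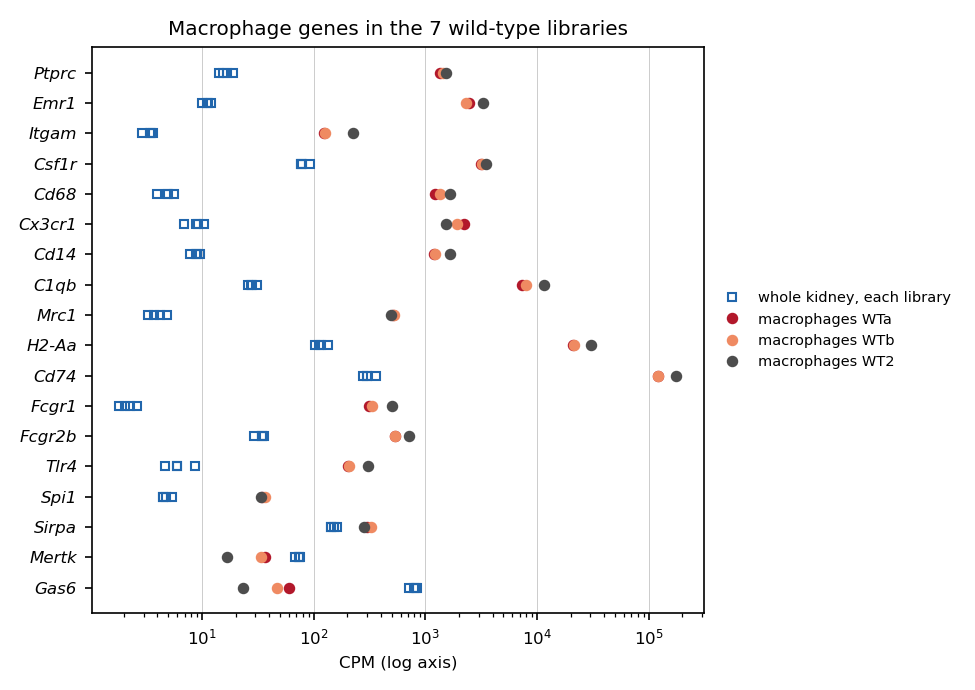
CPM on a log axis of 18 macrophage genes in each of the 3 macrophage libraries (filled circles) and the 4 kidney libraries (open squares). Cd74 reached 176462 CPM in WT2, while Mertk and Gas6 lie lower in macrophages than in kidney.

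Opsonins and receptors for dying cells split into higher and lower members. Of 13 shared genes of a clearance list, 7 were higher and 1 was lower. The 3 chains of C1q, the starter of the classical complement pathway, were among the strongest: C1qb (chr4:136880128-136886187) measured 7388, 7985 and 11473 CPM against 26.0, 28.1, 31.1 and 27.7 CPM (8.28 ± 0.20), C1qc differed by 7.18 ± 0.22 and C1qa by 6.77 ± 0.09. Together they took 1.33, 1.43 and 1.69% of all CPM in WTa, WTb and WT2. The mannose receptor Mrc1 (489 to 521 against 3.27 to 4.88 CPM), the scavenger receptors Msr1 (107 to 146 against 0.601 to 0.825 CPM) and Stab1 (296 to 498 against 23.9 to 32.3 CPM), and the TAM receptor Axl (1028 to 1323 against 35.5 to 43.7 CPM) were higher. The sister receptor Mertk was not: it measured 36.8, 33.9 and 16.9 CPM in macrophages and 74.6, 68.6, 75.0 and 73.9 CPM in kidney, with every macrophage library below every kidney library. Gas6, the ligand that bridges phosphatidylserine to Axl and Mertk, was lower, at 60.4, 46.7 and 23.3 against 789, 713, 836 and 819.7 CPM (-4.29 ± 0.41). Another bridging protein, Pros1, measured 65.9 to 67.8 against 29.0 to 34.2 CPM, and Mfge8 47.7 to 92.9 against 82.4 to 94.7 CPM, with no call for either. The macrophage table alone lists the scavenger receptors Cd163 (3.07 to 3.42 CPM) and Marco (1.61 to 2.78 CPM), and Timd4 and Lyve1 are in neither table.

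Antigen presentation genes dominated the macrophage libraries. All 9 shared genes of the MHC class II list were higher, with a median difference of 6.93. Cd74, the invariant chain that guides class II molecules, measured 120194, 121197 and 176462 CPM in macrophages and 278, 304, 364 and 298 CPM in kidney (8.79 ± 0.20). It alone made up 13.3, 13.5 and 16.7% of all CPM in WTa, WTb and WT2, and 0.0261 to 0.0344% in kidney. The class II chain genes H2-Aa (20926 to 30426 against 102 to 134 CPM), H2-Ab1 (12899 to 16486 against 106 to 146 CPM) and H2-Eb1 (17354 to 24526 against 105 to 136 CPM) followed. The peptide loader H2-DMa differed by 7.10, and Ciita, the class II transactivator, measured 71.6, 72.9 and 110.3 against 1.56, 1.52, 1.89 and 1.56 CPM (5.68 ± 0.22). The costimulator Cd86 measured 589, 571 and 865 against 1.65, 3.04, 2.38 and 1.69 CPM (8.29 ± 0.29). In the MHC class II family, where paralogs are alike, the authors' counting could divide reads between members. CPM are relative levels, so a large share for these genes lowers the share left to all others. The CPM of the listed genes summed to 901922, 896825 and 1055470 in WTa, WTb and WT2, so the total was not fixed. Rescaling to the shared genes moved the counts to 607 higher and 1147 lower.

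Fc receptors, which bind antibody, were higher in 5 of 6 cases (median 7.31). The activating receptor Fcgr1 measured 311, 335 and 506 against 1.83, 2.64, 2.26 and 2.05 CPM (7.43 ± 0.25) and Fcgr4 366, 429 and 806 against 2.24, 2.82, 2.83 and 2.74 CPM (7.57 ± 0.36). The inhibitory Fcgr2b measured 539, 540.4 and 715 against 34.3, 29.3, 34.5 and 35.8 CPM (4.15 ± 0.15), so its excess was smaller in these libraries than that of Fcgr1, Fcgr3 (7.18) and Fcgr4. Fcgrt, the neonatal Fc receptor, which also recycles albumin and antibody in tubule and endothelium, measured 624 to 646 against 191 to 225 CPM, with no call. Complement receptors were also high. C5ar1 measured 892, 995 and 1191 against 1.80, 2.13, 1.69 and 1.96 CPM (9.08 ± 0.14) and C3ar1 1086, 1013 and 1235 against 3.33, 3.65, 3.64 and 4.34 CPM (8.22 ± 0.12). Of 14 shared complement genes 8 were higher and 1 was lower. The lower one was Cfb, factor B of the alternative pathway, at 0.252 to 1.20 against 9.60 to 11.2 CPM, and C3 measured 10.7, 11.2 and 15.9 CPM against an uneven 28.1, 31.0, 142 and 68.2 CPM.

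Sensors of microbial products and the oxidative burst were higher. Of 13 shared Toll-like receptor pathway genes 9 were higher and none lower, with a median of 5.25. Tlr4, the endotoxin receptor, measured 202, 209.5 and 309 against 5.99, 8.72, 5.98 and 4.70 CPM (5.25 ± 0.27), and Tlr7, a sensor of single-stranded RNA, 99.9, 109.7 and 113 against 3.98, 3.59, 3.35 and 3.37 CPM (4.91 ± 0.08). Unc93b1, which escorts Toll-like receptors to endosomes, differed by 6.73 and Tlr13 by 6.35. The 4 members with no call were Tlr3, Tlr9, Ly96 and Myd88, at 1.67, 2.95, 2.13 and 2.16. Of the 6 phagocyte NADPH oxidase genes, which make superoxide, 5 were higher. Cybb, the catalytic subunit, measured 2752, 2721 and 3364 against 15.4, 18.5, 20.7 and 16.3 CPM (7.38 ± 0.14), whereas its partner Cyba, used by oxidases of other cells too, measured 313, 358 and 428 against 137, 123, 131 and 122 CPM (1.504 ± 0.14).

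Chemokines held 3 of the 5 largest differences of all shared genes, and their levels differed among macrophage libraries. Of 16 shared chemokines 9 were higher and 3 lower, or 8 and 2 without WT2, where Ccl8 and Cx3cl1 lost their calls. Ccl12, a monocyte attractant (chr11:82101844-82103400), measured 179, 226 and 753 CPM in WTa, WTb and WT2 and 0.205, 0.302, 0.286 and 0.39 CPM in kidney (10.08 ± 0.67). Ccl4 measured 223, 242 and 1391 against 0.677, 0.515, 0.687 and 0.631 CPM (9.40 ± 0.87) and Ccl3 108, 120.3 and 393 against 0.294, 0.484, 0.258 and 0.39 CPM (8.96 ± 0.63). All 3 were several times higher in WT2 than in WTa or WTb, by 4.21, 6.23 and 3.63 times against WTa, and even the lower libraries were far above kidney. Pf4, platelet factor 4, did not share this order, at 76.7, 82.5 and 50.8 against 0.53, 0.18, 0.229 and 0.27 CPM (7.95 ± 0.40). The 3 chemokines lower in macrophages were Cxcl12 (3.54 to 4.38 against 115 to 177 CPM), Cxcl14 (1.499 to 3.66 against 19.6 to 29.6 CPM) and Cx3cl1, the ligand of Cx3cr1 (5.90 to 13.8 against 74.3 to 91.9 CPM). Of the chemokine receptors, Ccr2, which draws monocytes to Ccl2, measured 403, 349.9 and 833 against 7.52, 8.36, 10.6 and 8.83 CPM (5.81 ± 0.40). Ccl2 is in the macrophage table only, at 1.99 to 12.0 CPM.

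Cytokines were mixed. The inflammasome product Il1b measured 194, 231 and 661 against 1.62, 2.34, 2.40 and 2.14 CPM (7.204 ± 0.57) and the inflammatory cytokine Tnf 16.4, 18.7 and 34.6 against 0.382, 0.332, 0.343 and 0.239 CPM (6.10 ± 0.36), with WT2 again the highest. Vegfa, the angiogenic factor, was lower, at 5.73, 5.07 and 0.847 against 171, 151, 164 and 193 CPM (-5.86 ± 0.89). Csf1, a ligand of Csf1r, was lower too, at 0.585, 1.47 and 3.66 against 13.9, 17.0, 16.9 and 16.7 CPM (-3.45 ± 0.77), while the other ligand, Il34, measured 3.39, 1.03 and 0.151 against 4.45, 5.71, 5.84 and 4.61 CPM (-2.66), with no call. The sheddase Adam17 measured 211, 198 and 245 against 53.2, 51.8, 48.3 and 50.6 CPM and its trafficking partner Rhbdf2 16.2, 21.0 and 25.0 against 12.9, 12.9, 12.9 and 12.9 CPM, with no call for either. Egfr, a receptor activated by shed ligands, was lower (2.24 to 5.53 against 66.1 to 81.3 CPM).

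Most lysosomal genes had no call, as was so for 8061 of all 9884 shared genes. Over all shared genes 5.93% were higher and 12.5% lower. Of 26 shared lysosomal genes 3 were higher, 1 was lower and 22 had no call, and the median was 0.64. Their summed level was 31122 to 36032 CPM in macrophages and 11009 to 11613 CPM in kidney. The higher genes were proteases: cathepsin S, Ctss, measured 4868, 5049.8 and 7559 against 23.9, 28.5, 32.6 and 27.5 CPM (7.67 ± 0.22) and Ctsc differed by 6.54 ± 0.07. Ctsz differed by 3.07 ± 0.17, and lost its call without WT2, which left 2 higher genes. Of those without a call, Ctsb differed by 2.58, Ctsa by 2.57 and Man2b1 by 2.53. In contrast Ctsd measured 459.5 to 623 against 805 to 849 CPM, Ctsl 79.0 to 131 against 639 to 741 CPM, and the membrane protein gene Lamp1 was lower (107 to 149 against 1599 to 1710.3 CPM). Iron genes gave a similar split. The natural resistance transporter Slc11a1, which exports iron from phagosomes, measured 659, 714 and 665 against 3.89, 3.34, 3.23 and 3.10 CPM (7.65 ± 0.08). The heme oxygenase gene Hmox1 measured 127, 163 and 233 against 25.2, 18.3, 24.9 and 29.0 CPM and the iron exporter Slc40a1 212, 299 and 237 against 132, 115, 122 and 143 CPM, both without a call. Ferritin heavy chain, Fth1, was lower (264 to 366 against 2961 to 3329 CPM), but it has many processed copies in the genome between which reads could be split, so its level is uncertain.

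Among transcription factors of macrophages, Runx1 (5.95), Irf5 (4.31), Ikzf1 (4.26) and Klf6 (3.92) were higher of 14 shared genes. Tfec, of the MiT family, was lower, at 2.37, 0.834 and 2.36 against 32.0, 21.4, 26.0 and 30.1 CPM (-4.02 ± 0.52). The oxysterol receptor Nr1h3 was lower at 9.79, 6.57 and 4.87 against 58.6, 53.9, 69.8 and 61.9 CPM (-3.16 ± 0.30), a call lost without WT2. Genes that mark macrophages of other organs were seen in part. Vcam1, an adhesion molecule of splenic red pulp macrophages and of injured tubule, measured 355.3, 364 and 343 against 13.3, 14.9, 15.4 and 11.0 CPM (4.71 ± 0.11), and Spic, the red pulp factor, is in the macrophage table only at 26.2 to 37.8 CPM. Of 8 shared genes of the microglia list 3 were higher and 3 lower. Tmem119 measured 243, 281 and 304 against 8.52, 13.7, 11.3 and 11.4 CPM (4.63 ± 0.17) and Fcrls 43.4, 35.1 and 21.4 against 0.412, 0.393, 0.687 and 0.692 CPM (5.92 ± 0.38). Sall1, a microglial factor that is also a nephron gene, was lower (2.30 to 7.98 against 102 to 119 CPM), as were the fructose transporter Slc2a5 (-4.80) and the matrix gene Sparc (-4.61), while Cst3 was higher (3.76). The alveolar factor Pparg measured 26.2 to 27.4 against 2.52 to 3.04 CPM (3.27), but the lipid-binding protein gene Fabp4, known as a target of it, was lower (0.936 to 1.53 against 44.8 to 68.8 CPM). The Kupffer markers Clec4f and Vsig4 are in neither table, and Cd5l and Folr2 are in the macrophage table only, at 0.03 to 0.0578 and 0.423 to 0.834 CPM, Cd5l below the level of 3 reads. Of 13 genes of the lipid-associated programme only Trem2, a lipid receptor, was higher (22.3 to 28.1 against 0.412 to 0.801 CPM), and the list median was 0.32, or 0.03 without WT2. Over all shared genes 5.93% were higher.

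Markers of other leukocytes were present in the sorted libraries at levels that varied widely. Of 10 B and plasma cell genes 5 are in neither table. Cd79b, part of the B cell receptor, nevertheless measured 172, 193 and 169 against 1.15, 2.34, 3.03 and 1.17 CPM (6.66 ± 0.36) and Cd79a 4.76, 7.57 and 12.2 against 0.471, 0.818, 3.46 and 0.481 CPM. Jchain, the joining chain of antibodies, is listed as Igj and measured 115, 29.98 and 440.2 against 29.9, 25.2, 22.4 and 11.6 CPM, spread widely among macrophage libraries. The T cell gene Cd3e measured 13.4, 12.1 and 29.9 against 0.441, 1.21, 0.859 and 0.541 CPM (4.59 ± 0.53). Of 7 shared T and NK cell genes 5 were higher and none was lower. Their median ratio of WTa to WT2 was 0.47, from 0.34 in Nkg7 to 1.51 in Cd4. Per kilobase of exon, Cd4 stood at 54.0 CPM in macrophages and Cd3e at 12.9 CPM. Cd4 measured 272, 201 and 180.3 CPM against 1.36, 1.55, 2.66 and 1.81 CPM in kidney, and its highest library was WTa, where Cd3e was low. Of 6 shared dendritic cell genes 2 were higher, and the list median was 0.84. The higher genes Itgax, which encodes CD11c, and Clec9a measured 174, 193 and 268 and 30.7, 23.7 and 50.0 CPM. Without a call, Zbtb46 differed by -2.18, Dpp4 by -1.89, Irf8 by 0.54 and Itgae by 1.14, and Flt3 and Cd209a are in neither table. Of 13 neutrophil genes 10 are in neither table, and only Csf3r is shared, at 72.0 to 105 against 0.825 to 1.61 CPM. Of 10 shared monocyte genes 4 were higher (Ccr2, Spn, Treml4 and Itgal) and 1, Fn1, was lower. Plac8, Chil3 and S100a4 lay on the low side without a call. The median ratio of WTa to WT2 for the monocyte list was 0.51, beside 1.02 for all genes. What part cells other than macrophages had in any result was not tested.

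**Figure D3:**
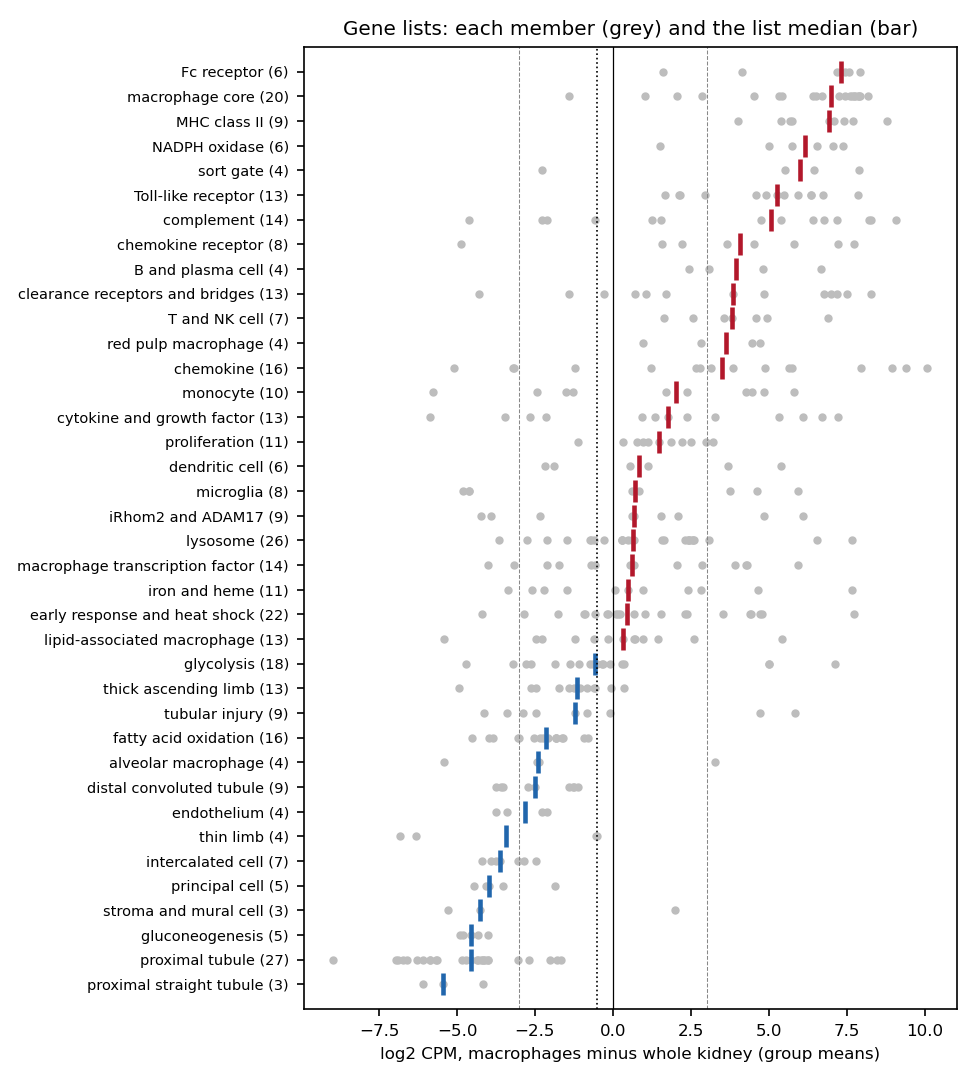
Log2 difference, macrophages minus whole kidney, of every shared gene (grey points) of the lists with at least 3 shared genes, with the list median as a bar and the number of shared genes in brackets; the dotted line is the median of all genes and dashed lines mark 8-fold. The macrophage core, MHC class II and Fc receptor lists reach medians near 7. Other macrophage lists lie lower, among them clearance (3.84), macrophage transcription factors (0.61) and the lipid-associated list (0.32). The proximal tubule lists lie near -5 and the thick ascending limb list at -1.16.

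Of the 25 genes with the largest deficit in macrophages, 5 were on the proximal tubule list (Kap, Slc5a12, Cubn, Slc5a2 and Hnf4a). Kap, the androgen-regulated kidney protein (chr6:133849854-133853667), measured 24.3, 10.8 and 12.8 CPM in macrophages and 6068, 8405, 7161 and 8695 CPM in kidney (-8.97 ± 0.37). Scd1, a fatty acid desaturase, measured 9.15, 5.30 and 6.14 against 2427, 1762, 2067 and 960.1 CPM (-8.00 ± 0.38), and Igfbp5, which binds insulin-like growth factors, 6.72, 5.63 and 2.42 against 831, 1002, 806 and 764 CPM (-7.55 ± 0.46). In none of these did the groups come near each other. Mpv17l (-8.00), the aminotransferase Aadat (-7.44), the extracellular superoxide dismutase Sod3 (-7.42), the water channel Aqp1 (-6.82) and the growth hormone receptor Ghr (-6.87) were also among the 25. On the proximal list, the endocytic receptor Cubn differed by -6.89, the glucose transporter Slc5a2 by -6.74 and the transcription factor Hnf4a by -6.61.

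The proximal tubule list gave 23 lower genes of 27 shared, none higher, and a median of -4.57. The median member stood at 4.68% of its kidney CPM. By library this median was 8.08% in WTa, 3.63% in WTb and 2.64% in WT2. Slc34a1, the phosphate transporter of the brush border (chr13:55399647-55414695), measured 659.9, 275 and 204 CPM against 6508, 5156, 5359.9 and 5939 CPM (-4.10 ± 0.51). Lrp2, the endocytic receptor megalin, measured 97.6, 46.3 and 21.9 against 2618, 2329.8, 2574 and 3306 CPM (-5.86 ± 0.63). WTa was the highest macrophage library for both. The proximal straight tubule list had 3 shared genes, all lower: Napsa (-6.10), Acy3 (-5.43) and Slc5a8 (-4.17). The kidney table alone lists 5 further straight tubule genes, among them Slc22a7 at 289 to 366 CPM.

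Thick ascending limb transcripts were much closer to their kidney level. Of 13 shared genes 1 was lower, beside 12.5% of all genes, and 12 had no call. Their median was -1.16, beside -0.51 for all genes. Umod, the uromodulin gene and the classic product of this segment (chr7:119462865-119479255), measured 4570.1, 3334 and 972 CPM in WTa, WTb and WT2 and 5246, 5379, 5717 and 5560.5 CPM in kidney. Slc12a1, the furosemide-sensitive salt transporter, measured 1665, 1149.7 and 385 against 1644, 1828, 1525 and 1411 CPM, so that WTa reached the kidney range and WT2 did not. Kcnj1, the potassium channel ROMK, measured 505, 434 and 154 against 528, 449, 485 and 513 CPM, and the epidermal growth factor gene Egf 1315, 1001 and 324 against 2147, 1891, 1857 and 2065 CPM. Sostdc1, a secreted inhibitor of BMP and Wnt signals, was above kidney in WTa and WTb and below it in WT2, at 236, 181 and 52.8 against 100.1, 111, 108 and 95.5 CPM. The tight junction gene Cldn16 measured 25.4, 16.1 and 7.87 against 18.0, 14.7, 15.9 and 12.8 CPM. The exception was Ptger3, a prostaglandin receptor, which was lower at 4.41, 2.58 and 1.51 against 78.2, 97.2, 82.1 and 63.0 CPM (-4.94 ± 0.46). The kidney table alone lists 3 thick-limb genes, Irx1, Irx2 and Ppp1r1b, at 31.8 to 40.9, 15.6 to 20.9 and 28.5 to 35.4 CPM.

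The median thick-limb gene stood at 83.5% of its kidney CPM in WTa, 59.0% in WTb and 17.8% in WT2. Summed over the 13 genes, the libraries held 9459.8, 7007 and 2225 CPM, against 11771 to 12014 CPM in kidney. The 27 proximal tubule genes summed to 3962, 2302 and 1987 CPM, against 45092 to 51484 CPM. Thick-limb sums thus exceeded proximal sums in each macrophage library; in kidney they did not. In the other sorted macrophages of the study the thick-limb sum was 4018 to 4287 CPM in Rhbdf2-/-, 529 to 1372 CPM in Fcgr2b-/- and 621 to 3092 CPM in the double mutant (3 libraries each), so WTa and WTb exceeded all 9 of them. Without WT2 the median thick-limb difference was -0.59 and the median percent of kidney 67.1, against 53.0 with all 3. Without WTa, Cldn19 joined Ptger3 among the lower genes.

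**Figure D4:**
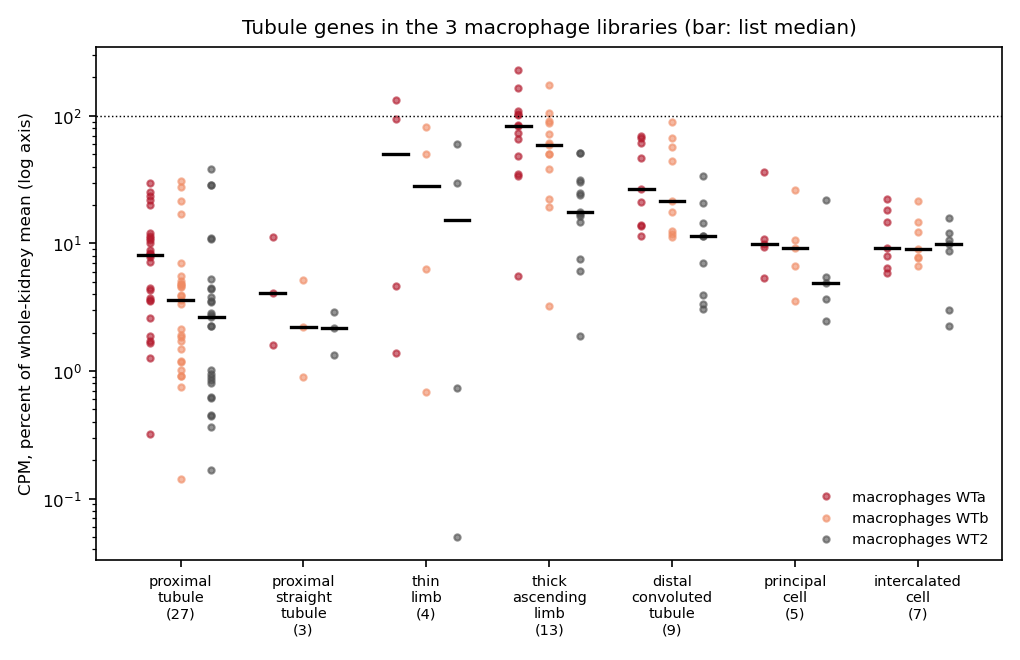
CPM of each shared tubule gene in each macrophage library, as a percent of the whole-kidney mean (log axis), by nephron segment, with list medians as bars and the number of genes in brackets. Thick-limb medians fall from 83.5% in WTa to 17.8% in WT2, and proximal tubule medians from 8.08% to 2.64%.

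By the medians of shared genes, segments beyond the thick limb lay in between. In the kidney table only are 6 of 12 principal-cell, 5 of 13 intercalated-cell and 3 of 30 proximal tubule genes. Such genes have no macrophage level here and are left out of the medians, to an extent that differs between segments. For the distal convoluted tubule, 3 of 9 shared genes were lower (1 of 9 without WT2, where Kl and Cnnm2 lost their calls) and the median percent of kidney was 18.1. Slc12a3, the thiazide-sensitive salt transporter, measured 543, 504 and 128 against 987, 612, 959 and 993 CPM, without a call. Calb1, a calcium buffer, was lower at 76.9, 75.2 and 20.6 against 738, 529, 694 and 738 CPM (-3.76 ± 0.64), and so was the anti-ageing receptor gene Kl at 117, 107 and 28.4 against 934, 722, 836 and 908 CPM. In principal cells 4 of 5 shared genes were lower, for example Scnn1a, a sodium channel subunit (4.24 to 16.2 against 149.8 to 189.8 CPM), and Aqp3 (4.96 to 7.48 against 124 to 152 CPM). The vasopressin-regulated water channel Aqp2 is in the kidney table only, at 208 to 755 CPM. In intercalated cells 5 of 7 were lower, including the proton pump subunit Atp6v0a4 at 37.9, 31.3 and 14.3 against 525, 415, 469.8 and 487 CPM (-4.20 ± 0.44).

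The difference between macrophage libraries ran in the same direction for most tubule genes. Of 68 shared genes on the tubule lists, 47 were at least 2 times higher in WTa than in WT2, compared with 1094 of all 9884 genes (11.1%). The median ratio of WTa to WT2 was 4.06 for thick-limb genes, 3.73 for distal convoluted tubule genes, 2.85 for proximal tubule genes, 0.86 for the macrophage core and 1.02 for all genes. Mitochondrially encoded genes moved likewise, at 3.96, 3.07 and 1.23% of CPM in WTa, WTb and WT2, against 10.4 to 11.8% in kidney. The part of carried-over tubule material in these values was not tested.

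Some tubule-list genes did not share this order. Ratios of WTa to WT2 below 1.5 were seen for 9 of the 68, all chosen for mention after their values were seen. Gatm, which makes the creatine precursor, measured 713, 670.5 and 699 CPM in macrophages against 2976, 2218, 2209 and 2258 CPM, a ratio between WTa and WT2 of 1.02. The amino acid transporters Slc7a7 and Slc7a8 measured 71.4, 86.4 and 107 and 140.1, 129.5 and 171 CPM, highest in WT2, and stood at 31.5% and 24.5% of their kidney means. The kinase gene Wnk1, which is broadly expressed, had a ratio of 1.37. The protease gene Napsa had 0.732 and Aqp3 1.09. The intercalated-cell genes Atp6v1g3, Rhbg and Atp6v0d2 had 0.674, 0.606 and 0.585, although Atp6v1b1 and Atp6v0a4 had 6.59 and 2.65. Gatm, Slc7a7 and Slc7a8 are 3 of the 4 proximal tubule genes without a call, the other being Slc13a3 (-2.68, ratio 1.84). Outside the tubule lists, the matrix protein genes Spp1 (935, 665 and 241 CPM) and Clu (317, 313 and 81.6 CPM), both on the tubular injury list, were lowest in WT2, and stayed below their kidney values of 2796 to 3156 and 380.3 to 531 CPM.

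**Figure D5:**
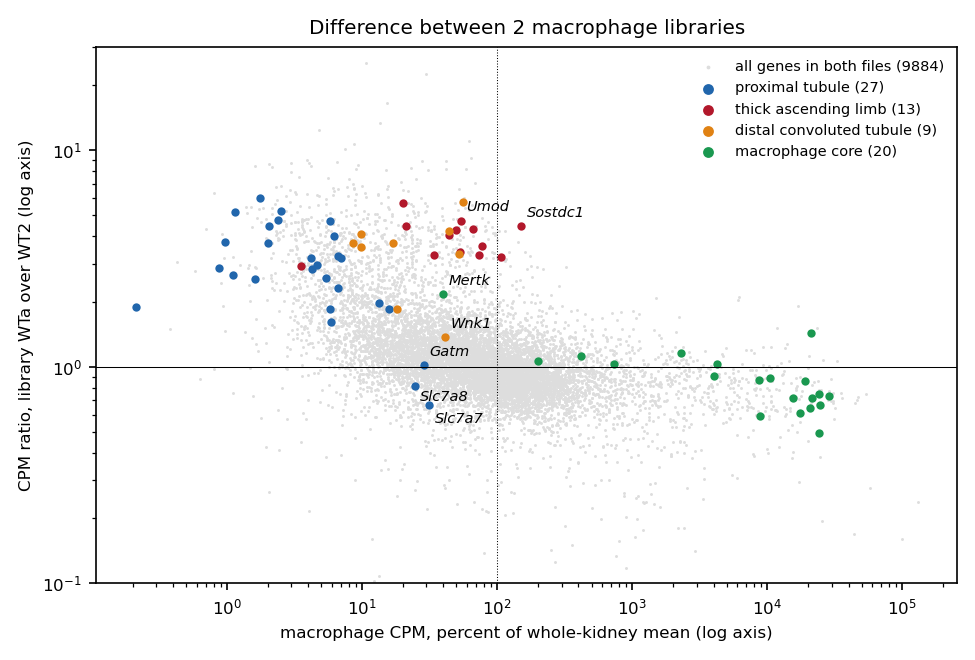
Ratio of CPM in macrophage library WTa to WT2 (y axis, log) against mean macrophage CPM as a percent of the whole-kidney mean (x axis, log), for all shared genes (grey) and 4 lists (colours). Thick-limb, distal and proximal tubule genes lie mostly above 2 on the y axis, while Gatm, Slc7a7 and Slc7a8 lie near or below 1 with the macrophage core.

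Cells of the vessel wall, glomerulus and interstitium left few shared genes. Of 16 endothelial genes 12 are in the kidney table only, including Kdr at 92.7 to 116 CPM, and of the 4 shared genes Ehd3 and Eng were lower. For stroma and mural cells 12 of 15 are in the kidney table only, and Acta2, smooth muscle actin, was lower (0.908 to 3.01 against 53.6 to 79.8 CPM). Itga8, an integrin of mesangial cells, went the other way without a call, at 60.7, 58.3 and 63.1 against 13.5, 17.4, 16.5 and 13.6 CPM. All 7 urothelial genes and 7 of 10 podocyte genes are in the kidney table only. Of the shared podocyte genes Ptpro, a phosphatase also made by leukocytes, was higher in macrophages at 292, 281 and 302 against 34.5, 30.1, 32.1 and 33.4 CPM (3.17 ± 0.05). On the tubular injury list 2 of 9 shared genes were higher, Vcam1 and the hyaluronan receptor Cd44 (167 to 241 against 2.83 to 4.19 CPM), and 2 were lower, the keratin gene Krt8 (3.45 to 7.84 against 55.2 to 72.3 CPM) and Lcn2 (0.03 to 0.76 against 1.89 to 5.41 CPM). Lcn2 lost its call without WT2, and its lowest value, 0.03 CPM, is below the level of 3 reads. The injury marker Havcr1 is in the kidney table only, at 0.264 to 2.14 CPM. Of 11 shared proliferation genes only Top2a was higher (20.7 to 34.6 against 2.00 to 4.35 CPM), joined by Mcm5 without WTa, WT_388 or WT_550. That share stands beside 5.93% higher over all shared genes. A gene listed in one table only has no level in the other here, so no fold was given. The 2431 genes of the kidney table alone had a median of 8.75 CPM, and the 639 of the macrophage table alone 4.71 CPM. The highest of the latter was the collagenase gene Mmp13, at 981 to 1404 CPM. Mmp13 and the highest of the kidney table alone, Apob at 318 to 576 CPM, were chosen after their values were seen.

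Genes of glucose production were lower in macrophages, fatty acid oxidation genes lay on the low side, and glycolysis genes were mixed. All 5 shared gluconeogenesis genes were lower, with a median of -4.57. G6pc, which releases free glucose, measured 39.7, 23.6 and 17.2 against 924, 499, 905 and 759 CPM (-4.90 ± 0.41) and Pck1, the entry enzyme of the pathway, 318, 135 and 99.8 against 3478, 2303, 2306 and 2479.8 CPM (-4.003 ± 0.52). Fatty acid oxidation gave 5 lower genes of 16 (3 without WTb or without WT2, where Decr1 was among those that lost their calls) and a median of -2.16. All 16 differences were negative, from -4.51 to -0.79. The glycolysis list had 3 higher and 2 lower genes of 18, beside 5.93% higher and 12.5% lower over all genes. The hexokinase Hk3 measured 74.3, 79.1 and 196 against 0.648, 0.697, 0.887 and 0.812 CPM (7.12 ± 0.46), Hk2 40.4, 38.6 and 58.8 against 1.09, 1.64, 1.52 and 1.48 CPM (4.99 ± 0.23), and the glucose transporter Slc2a3 52.6, 47.2 and 53.7 against 1.62, 1.49, 1.89 and 1.44 CPM (5.00 ± 0.10). Gapdh and Pgam1 were lower, at 1.89 to 2.63 against 54.2 to 63.6 CPM and 17.4 to 29.5 against 206 to 222 CPM. Both have processed copies elsewhere in the genome, so their levels are uncertain, and the Pgam1 call was lost without WT2.

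Early response and heat shock genes varied widely within the macrophage group. Of 22 shared genes 6 were higher and 1 was lower, and the median was 0.45. Without WT2, Hspa1a lost its call, 5 were higher and 1 lower, and the median was 0.10. Fos, a fast-induced transcription factor, measured 91.0, 134 and 467 CPM in WTa, WTb and WT2 and 0.648, 1.58, 0.715 and 0.661 CPM in kidney (7.74 ± 0.78). Zfp36, which destabilises cytokine mRNA, measured 322, 419.6 and 1319.7 against 20.0, 24.2, 19.5 and 18.3 CPM (4.79 ± 0.63), and Atf3, a stress factor, 23.8, 22.7 and 86.0 against 1.98, 1.61, 1.95 and 1.41 CPM (4.39 ± 0.64). WT2 was the highest for all 3, and every macrophage library still exceeded kidney. Nr4a1 measured 14.0, 11.9 and 119 against 4.19, 7.41, 6.07 and 3.94 CPM, with no call. Jund, of the same AP-1 family as Fos, was lower at 3.54, 3.58 and 5.33 against 65.9, 82.3, 76.7 and 72.3 CPM (-4.19 ± 0.21), and Junb measured 2.57, 2.86 and 5.72 against 11.2, 16.6, 10.6 and 9.52 CPM. The 22 genes summed to 1514, 1810.3 and 4718 CPM in macrophages and 662 to 938 CPM in kidney. Only the macrophages went through enzymatic digestion and sorting, which cannot be told apart from tissue here.

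Levels of different genes were compared per kilobase of exon. In macrophages the highest mean was Cd74, at 98783 CPM per kilobase, followed by H2-Eb1 (16866), H2-Aa (12985), H2-Ab1 (8992) and C1qb (8225). The actin gene Actb, the thymosin gene Tmsb4x, Ctss, the protease inhibitor Cst3, Lyz2 and the nuclear RNA Malat1 were also among the 15 highest, with 4 mitochondrial genes. In kidney the 15 highest held 8 mitochondrial genes, led by mt-Atp8 (24869 CPM per kilobase), with Gpx3, a secreted glutathione peroxidase of the proximal tubule (16386), Kap (12471) and Umod (2215). For comparison, Umod in macrophages stood at 1197 CPM per kilobase, above Csf1r at 671. Malat1 measured 10862, 10915 and 5717 CPM in macrophages and 55.5, 46.6, 50.8 and 65.7 CPM in kidney (7.34 ± 0.33), lowest in WT2 among macrophages.

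Seen from the kidney side, most macrophage core genes stood at a small percent of their macrophage level. In kidney the 20 genes summed to 504 to 555 CPM. The median macrophage core gene stood in kidney at 0.74, 0.777, 0.824 and 0.764% of its macrophage mean in the 4 libraries, and at 0.801% for the kidney mean. As a ratio of the summed CPM of the list, the level was 1.67%. Cd68 stood at 0.346%, C1qb at 0.315%, Emr1 at 0.414%, Cd74 at 0.223% and Csf1r at 2.49%. Members with a high percent of their macrophage level in kidney, which other renal cells may also express, included Mertk (250.3%), Sirpa (49.6%) and Spi1 (13.7%).

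The size of a difference leaned slightly on base composition and length. Among 9486 genes with a GC value from GENCODE M21 transcripts (96.0%), the Spearman correlation between the log2 difference and GC content was -0.115, and the median difference fell from -0.18 in the 1898 genes poorest in GC (median 41.2%) to -0.91 in the 1897 richest (median 57.1%). The Spearman correlation with exon length was -0.073 over 9884 genes. Jund had 67.1% GC and Junb 62.6%, both above the median of the richest genes. So was Hspa1a at 58.9%, which was higher in macrophages (3.53). Of the same early response list, Ier2 (60.9%), Socs3 (58.7%), Hspa1b (58.1%) and Egr1 (57.3%) also lay above that median. A part of GC content in the levels of these genes was not tested. The correlations are across genes within the same libraries and were given no p.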

How the data were processed

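Expression was measured by single-read RNA sequencing, and only the 7 wild-type libraries of the 28 were compared. The authors deposited log2 CPM (gene counts per 1000000 on their own library scaling) in one table for each tissue, per the file headers, normalized separately. Summed CPM of the listed genes ran from 896825 in WTb to 1055470 in WT2, so libraries were not scaled to a total of 1000000. The build was mm10 (GRCm38), per the submitters' processing notes. For the aligner, counter, annotation and use of strand, nothing is stated in the labels or headers (not given in the sources used here). Low values stepped in whole reads: 100% of 384 macrophage and 608 kidney values checked came out whole within 0.1 read, which gave each library's reads in listed genes and a 3-read floor of 0.0831 to 0.0912 CPM. Floors cover counting error only. The tables held 0 other columns of per-sample values.

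Values were averaged on the log2 scale for differences, returned to CPM, ranked within each library and compared as described with Python 3.11.15, pandas 2.3.3, numpy 2.4.6 and scipy 1.17.1 (figures with matplotlib 3.10.9). Percents of the kidney or macrophage level and per-kilobase levels used arithmetic means of CPM instead, so they need not match the log2 differences. Errors are standard errors from the 3 and 4 libraries. Tissue, kit and facility coincide, so no model was fitted. Per-kilobase levels used the deposited gene lengths. RefSeq promoter windows matched 7978 of the 9884 genes (80.7%), 382 of them through a synonym, and 98.5% lay within 1000 bases of the deposited gene position.

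The genes compared and the 45 gene lists were chosen with earlier results of these data known, so their counts are descriptions. Named genes were the sort gate genes, the 25 largest differences each way among called genes of at least 5 log2 CPM in the higher tissue. Also named were the 15 highest per kilobase in each tissue, and of each list the 6 most different members and those against its median. From the tubule lists came the 10 genes highest in CPM and the 10 highest in percent of kidney. From the macrophage lists came the 10 genes with the highest percent of their macrophage level in kidney. Predicted, ribosomal protein, mitochondrial and antigen receptor genes were left out of the largest differences. Cd14, Tyrobp, Ciita, Lrp2, Tlr3, Tlr4, Tlr7, Tlr9, Ly96, Myd88, Slc13a3, Slc7a7, Slc7a8 and the genes at the edge of the rule were chosen after their values were seen. Alternatives were other scalings, log2(CPM + 1), a filter on low values, other fold limits, ranks alone, summed levels and leaving out each library. Some genes within these rules are not reported here.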

Additional observations from a re-analysis of the deposited data

Results flagged for a closer look

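Summed levels of the gene lists and the other reported totals were examined in the 4 kidney libraries for a library far from the rest, 50 items in all. In 4 of them the gap between the extreme library and its nearest neighbour, as a share of the whole range, exceeded Dixon's critical value, and chance flags about 1 in 20 groups. The B and plasma cell sum gave a gap of 0.885, with WT_550 lowest at 3.76 log2 CPM against 4.86 to 5.00. The stroma and mural cell sum gave 0.855, with WT_388 lowest at 6.93 against 7.25 to 7.30. The podocyte sum gave 0.867, with WT_356 highest at 7.86 against 7.55 to 7.59. The thick ascending limb sum gave 0.836, with WT_550 lowest at 13.52 against 13.55 in the others, a gap that is small in size.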

How the results depend on the processing

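No paired analysis was possible because macrophage and kidney libraries share no replicate numbers in the labels. The number of genes higher in macrophages was 586, and 924 at 4-fold, 383 at 16-fold and 1912 by ranks alone. The number lower was 1237, and 2376, 560 and 2093 in the same order. Under the other scalings, log2(CPM + 1) and the filter on low values, 516 to 731 genes were higher and 848 to 1232 lower. Leaving out each library in turn gave 553 to 602 higher and 1085 to 1343 lower. The level of the median macrophage gene in kidney, 0.801%, was 0.754% after rescaling to the shared genes, 0.562% after taking out the median shift, 0.695% with quantile normalization, 0.950% with log2(CPM + 1) and 1.67% as a ratio of summed CPM, and 0.771 to 0.859% without each library. The median proximal tubule gene stood at 3.14 to 5.70% of kidney without each library and at 4.68 to 6.67% under the other settings. Rank agreement between the tissues stayed between 0.306 and 0.375. With the median shift taken out, 27 of 43 list medians moved by at least their standard deviation between macrophage libraries. With quantile normalization 17 did, with log2(CPM + 1) 14, and after rescaling to the shared genes 6. Of the 43 list medians 1 changed sign: the erythroid median was 0.75, -0.035 without WTb, 1.40 without WT2, 0.13 without WT_346 and 1.64 without WT_356. The monocyte median was 1.27 without WT2, against 2.03. The thin limb median was -2.28 without WT2 and -4.06 without WTa, against -3.43. The B and plasma cell median was 4.56 without WT_388, against 3.95. The causes were not tested. A level below 3 reads, 0.0831 to 0.0912 CPM, could not be told from 0.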
